A study of Homo sapiens with 9 samples.

Results

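The ISG15 conjugation system was followed through 7 genes, which were taken by symbol from the 38021 genes of the count table, and all 7 were found. They were the modifier ISG15, the activating enzyme UBA7, the conjugating enzyme UBE2L6, the ligases HERC5, HERC6 and TRIM25, and the protease USP18. RNA came from 786-O cells, an established human clear cell renal cell carcinoma line that lacks functional VHL and therefore keeps HIF2α stable at normal oxygen. The study asked how far ARNT and BMAL1, both partners of HIF2α, contribute to gene expression in these cells. The groups were shControl, shARNT and shBMAL1, with 3 libraries each that the labels call biological replicates. Cells of every group, control included, carried a lentiviral pLKO.1 hairpin vector and were selected and kept in puromycin, in DMEM with 10% fetal bovine serum. Each target was depleted by 1 hairpin, so a change cannot be assigned to the target apart from that hairpin, and no cell clone was named. The labels do not say whether the replicates came from separate infections, so p-values measure the spread between these libraries.

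ISG15 is a ubiquitin-like protein that interferon induces strongly. It is attached to other proteins in steps that mirror ubiquitination: UBA7 activates it, UBE2L6 carries it, and a ligase, mainly HERC5 in human cells, transfers it to a substrate, while USP18 takes it off again. The genes of this chain are themselves interferon-stimulated, most of them through the factor ISGF3, which includes STAT2 and IRF9 and binds an element known as the ISRE. The counts describe messenger RNA, and neither free ISG15 nor its conjugates were measured here.

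Library totals lay between 33793045 and 35444735 reads. ARNT, the gene targeted by the first hairpin, had a log2 fold change of −0.94 under shARNT, and ARNTL, the symbol the table uses for BMAL1, had −1.23 under shBMAL1 (DESeq2 adjusted p 8.83e-35 and 2.51e-25). Each target was also called lower, by less, under the other hairpin, ARNTL under shARNT (−0.26, adjusted p 0.0294) and ARNT under shBMAL1 (−0.23, adjusted p 0.0187). All 9 renal epithelial markers were detected in every library, from EPCAM at 265 normalised read counts or more to VIM at 99638 or fewer. Among 8 markers of other cells, CD3E and CDH5 were at 0 in all 9 libraries, which allows up to 3 reads a library, and PTPRC and DES did not exceed 2.98. COL1A1, a fibroblast collagen that carried most of the summed level, was at 105 to 164 and CD14 at 7.04 to 13.9, and COL1A1 was called lower under shARNT (−0.41, adjusted p 0.0993). The summed level of these 8 genes was 153 to 171 normalised counts in control, 128 to 136 in shARNT and 139 to 182 in shBMAL1. Reads on 13 mitochondrial genes took 5.68% ± 0.81 in control, 7.44% ± 0.61 in shARNT and 8.38% ± 0.38 in shBMAL1 (SD, n = 3), and the part of this share in the results was not tested.

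On GRCh37, the reference transcript of ISG15 spans chromosome 1 from 948877 to 949920 on the plus strand. HERC6 (chromosome 4, 89300004 to 89364249) and HERC5 (chromosome 4, 89378270 to 89427314) lie next to each other on the plus strand. UBA7 lies on chromosome 3 (49842642 to 49851386, minus), UBE2L6 on chromosome 11 (57319135 to 57335145, minus), USP18 on chromosome 22 (18632937 to 18660164, plus) and TRIM25 on chromosome 17 (54965270 to 54991410, minus). All are protein-coding. USP18 shares sequence with USP41, a transcribed pseudogene: 17.7% of the 100-base windows of the USP18 transcript also occur in a USP41 transcript. TRIM25 is overlapped on the opposite strand by a long non-coding RNA that holds 6.5% of its windows, and whether the counting used strand was not given, so the counts of USP18 and TRIM25 carry that uncertainty. No window of ISG15, UBA7, UBE2L6, HERC5 or HERC6 occurred in a transcript of another gene.

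Promoters from RefSeq (GRCh38.p14, 250 bases before to 50 bases after a start site) were matched for 5 of the 7 genes: ISG15, UBE2L6, HERC5, HERC6 and TRIM25. UBA7 and USP18 were not matched. The ISRE core, written as GAAANNGAAA and searched on both strands, occurred in 3.57% of all 35116 promoters, in those of ISG15 and HERC5, and in 30 of the 42 matched promoters of a hand-written list of 52 interferon-induced genes. The windows below show the matches of ISG15 and HERC5, with the matching bases in capitals, each read 5′ to 3′ along the gene. The matches of HERC5 are on the opposite strand, so their capitals show the reverse complement of the core. The modifier and its main ligase thus have the pattern in common, while the bases between its fixed letters differ.
ISG15 (chr1:1013372-1013411, plus strand): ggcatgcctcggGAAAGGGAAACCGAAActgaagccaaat
HERC5 (chr4:88456982-88457021, plus strand): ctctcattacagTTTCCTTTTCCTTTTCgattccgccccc
HERC5 (chr4:88457030-88457069, plus strand): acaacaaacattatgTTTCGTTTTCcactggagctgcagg

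The capitals of the ISG15 window run from 113 to 98 bases before the start and hold 2 overlapping matches. In HERC5 the first window also holds 2 overlapping matches, from 125 to 110 bases before the start, and the second holds 1, from 74 to 65 bases before it. The E-box CACGTG, which BMAL1 binds together with CLOCK, occurred in 7.26% of all promoters and in those of HERC5 and TRIM25, and also in that of IRF9, the DNA-binding subunit of ISGF3. IRF9 was the 1 gene with an E-box among 13 matched interferon signalling genes. Of the 42 matched interferon-induced genes, 4 had one, so these shares of genes lie near the share of all promoters. These windows are shown because BMAL1 was one of the targets, and the capitals mark the E-box.
HERC5 (chr4:88457069-88457108, plus strand): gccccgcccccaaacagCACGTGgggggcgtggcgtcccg
TRIM25 (chr17:56914076-56914115, minus strand): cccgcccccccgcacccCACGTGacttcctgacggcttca
IRF9 (chr14:24161177-24161216, plus strand): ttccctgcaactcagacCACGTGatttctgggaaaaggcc

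The shorter core of the hypoxia response element was taken as ACGTG or GCGTG on either strand, and the E-box contains it. It was found in 48.5% of all promoters and in 4 of the 5 genes matched here, so it separates little. A match is a description of the letters in this window, and binding was not examined.

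With ARNT depleted, all 7 genes were called lower, UBA7 by the smallest margin. With BMAL1 depleted, ISG15, USP18, HERC5, TRIM25 and HERC6 were called lower, and no change of UBA7 or UBE2L6 was called. Under shARNT the log2 fold changes ran from −0.16 for UBA7 to −0.81 for USP18, and under shBMAL1 those of the 5 lowered genes ran from −0.50 for HERC6 to −1.45 for ISG15. In shARNT against shControl, 7 of 7 genes were called lower at a DESeq2 adjusted p under 0.1, where 19% of the 15164 genes tested were called lower and 16.5% higher. In shBMAL1 against shControl, 5 of 7 were called lower and 0 higher, where 19.4% of the 19036 genes tested were called lower and 17.4% higher. The median log2 fold change of the 7 genes was −0.57 under shARNT and −0.85 under shBMAL1, beside medians of 0.00 and 0.02 over all genes tested. Both comparisons use the same 3 control libraries, so their values stand side by side and are not independent. In bulk RNA, fewer cells that express a gene and less of its RNA per cell cannot be told apart.

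**Figure D1:**
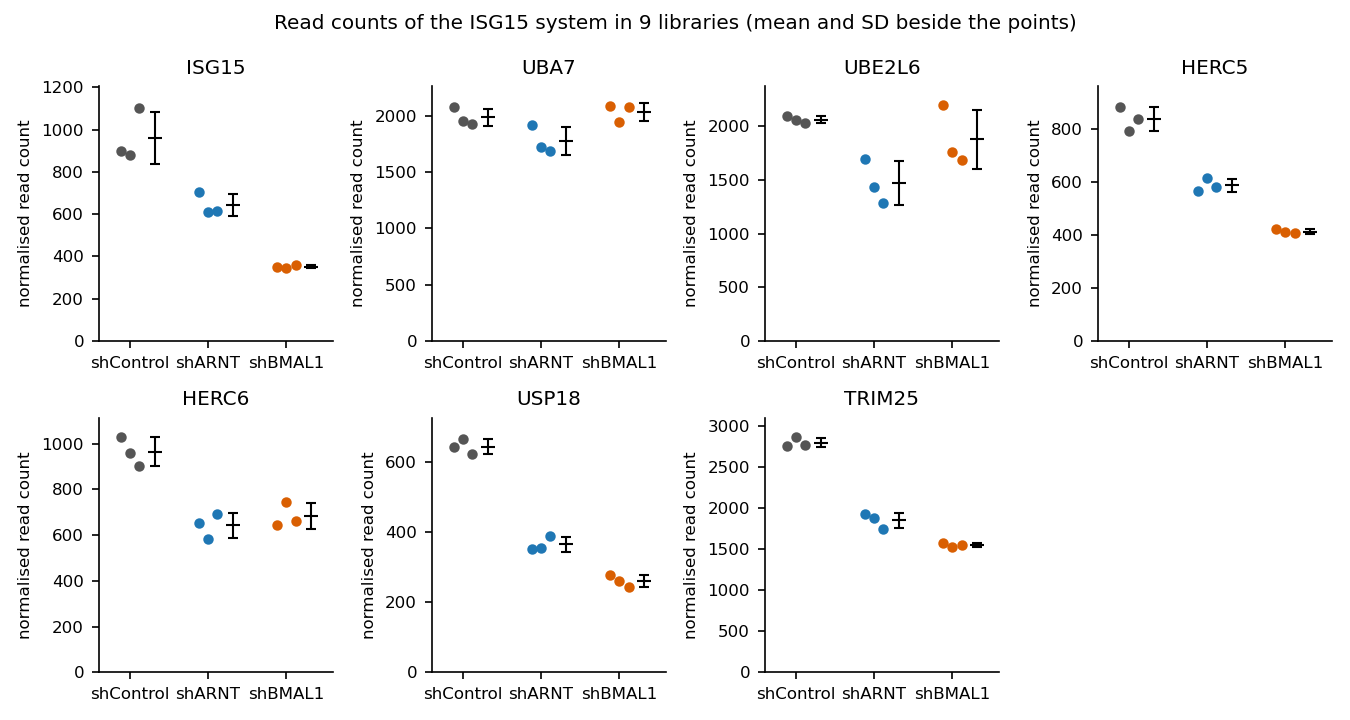
Normalised read counts (vertical axis, linear, from 0) of the 7 genes in each of 9 libraries, 3 per group, with the group mean and SD as a bar beside the points. ISG15, HERC5, USP18 and TRIM25 step down from shControl to shARNT to shBMAL1 with no overlap of the groups, while UBA7 and UBE2L6 in shBMAL1 overlap their control levels.

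ISG15, the modifier, had 901.6, 880.7 and 1101 normalised read counts in the 3 shControl libraries, 704.5, 611.8 and 615.2 in shARNT, and 350.5, 346.7 and 358.4 in shBMAL1. The groups formed 3 separate levels, the control libraries spreading most and the shBMAL1 libraries least. Under shARNT it changed by −0.57 on the log2 scale (SE 0.10, DESeq2 adjusted p 6.06e-07), which left 67.1% of the control level. Under shBMAL1 it changed by −1.45 (SE 0.12, adjusted p 2.35e-34), which left 36.6%. The coefficient of variation of ISG15 among replicates was 12.6% in control, 8.16% in shARNT and 1.70% in shBMAL1, and the wide control value came from replicate 3. Leaving out single libraries kept the log2 fold change between −0.65 and −0.47 under shARNT and between −1.51 and −1.35 under shBMAL1.

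UBA7, the enzyme that activates ISG15, had 2072, 1953 and 1925 normalised counts in control, 1918, 1724 and 1681 in shARNT, and 2081, 1942 and 2074 in shBMAL1. The shARNT libraries lay just below the control range, and the shBMAL1 libraries overlapped it. Under shARNT it changed by −0.16 (SE 0.07, DESeq2 adjusted p 0.0851). This call was lost without shControl replicate 1 (adjusted p 0.311), 2 (0.145) or 3 (0.106) and without shARNT replicate 2 (0.272) or 3 (0.331), so it rests on having every one of those libraries. Under shBMAL1 the estimate was 0.03, with a 95% interval from −0.11 to 0.18 (adjusted p 0.799).

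UBE2L6, the conjugating enzyme of the pathway, was at 2097, 2055 and 2031 normalised counts in control, 1691, 1434 and 1288 in shARNT, and 2194, 1758 and 1681 in shBMAL1. Every shARNT library was below every control library, whereas shBMAL1 had 1 library above the control range and 2 below it. The fall under shARNT was −0.48 (SE 0.09, DESeq2 adjusted p 3.43e-07). For shBMAL1 the log2 fold change of −0.14 (95% interval −0.32 to 0.05) was not called, at an adjusted p of 0.306. Without shBMAL1 replicate 1 it became −0.26 and was called (adjusted p 0.00383), so 1 library decided that result. The coefficient of variation of UBE2L6 was 1.62% in control, 13.9% in shARNT and 14.7% in shBMAL1.

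HERC5, the principal ligase for ISG15 in human cells, had 885.5, 792.7 and 838 normalised counts in control, 568.1, 614.7 and 581.4 in shARNT, and 423.9, 410.2 and 406.4 in shBMAL1. As for ISG15, the 3 groups did not overlap. HERC5 changed by −0.51 on the log2 scale under shARNT (SE 0.09, DESeq2 adjusted p 6.17e-07) and −1.02 under shBMAL1 (SE 0.10, adjusted p 3.22e-21), where 49.2% of the control level remained. HERC6, its neighbour on chromosome 4, is the main ISG15 ligase in mice. It had 1029, 960.7 and 902.7 counts in control, 652.8, 584.3 and 692.8 in shARNT, and 643.4, 746.8 and 660 in shBMAL1. HERC6 thus fell to overlapping ranges in both knockdowns, by 0.58 on the log2 scale under shARNT (SE 0.10, adjusted p 2.18e-08) and by 0.50 under shBMAL1 (SE 0.10, adjusted p 6.96e-06).

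TRIM25, a ligase for both ubiquitin and ISG15 that also activates the RNA sensor RIG-I, had the smallest standard errors of the 7 genes. Its normalised counts were 2766, 2865 and 2776 in control, 1932, 1878 and 1749 in shARNT, and 1584, 1534 and 1551 in shBMAL1. The 3 groups were again separate, with log2 fold changes of −0.59 under shARNT (SE 0.06, DESeq2 adjusted p 6.11e-19) and −0.85 under shBMAL1 (SE 0.07, adjusted p 7.97e-32).

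USP18, which removes ISG15 from its targets and also dampens signalling at the type I interferon receptor, had 644, 665.8 and 622.7 normalised counts in control, 352.7, 355.5 and 390.6 in shARNT, and 277, 262 and 243.8 in shBMAL1. No library of one group reached into another. USP18 had the largest fall of the 7 genes under shARNT, −0.81 (SE 0.11, DESeq2 adjusted p 5.08e-13), and a fall of −1.31 under shBMAL1 (SE 0.12, adjusted p 1.38e-26), which left 40.5% of the control level. USP41, with which it shares sequence, had 132 ± 18.1 normalised counts in control, 74.1 ± 8.14 in shARNT and 61.2 ± 14.1 in shBMAL1 (SD, n = 3). Adding the USP41 reads to USP18, an alternative chosen after seeing the data, changed no call.

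**Figure D2:**
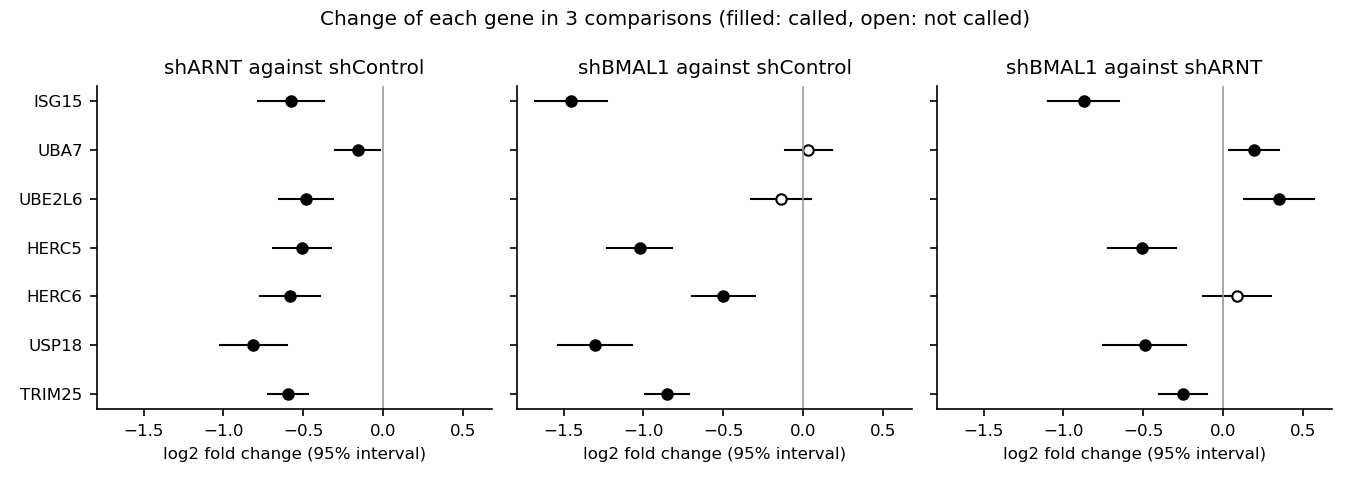
Log2 fold changes (horizontal axis) of the 7 genes in 3 comparisons, with bars for the 95% interval, filled points for genes called at a DESeq2 adjusted p under 0.1 and open points for the others. All 7 points are filled and below 0 in shARNT against shControl, UBA7 and UBE2L6 are open in shBMAL1 against shControl, and the genes fall on both sides of 0 in shBMAL1 against shARNT.

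The direct comparison of shBMAL1 with shARNT divided the system. ISG15 (−0.87, SE 0.11, DESeq2 adjusted p 5.90e-13), HERC5 (−0.51, SE 0.11, adjusted p 2.66e-05), USP18 (−0.49, SE 0.13, adjusted p 0.00143) and TRIM25 (−0.25, SE 0.08, adjusted p 0.00476) were lower in shBMAL1. UBE2L6 (0.35, SE 0.11, adjusted p 0.00795) and UBA7 (0.19, SE 0.08, adjusted p 0.0486) were higher. HERC6 was not called, with an estimate of 0.09 and a 95% interval from −0.13 to 0.30. Of 7 genes, 4 were thus called lower and 2 higher, where 18% of the 18181 genes tested were called lower and 17.3% higher. The calls for the pair of upstream enzymes rested on single libraries. UBA7 lost its call without shARNT replicate 2 (adjusted p 0.193) or 3 (0.238) and without shBMAL1 replicate 1 (0.110) or 3 (0.148). UBE2L6 lost its call without shARNT replicate 3 (0.26, adjusted p 0.104). Leaving out single libraries moved the UBE2L6 estimate between 0.23 and 0.46.

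The ranges of the libraries were also compared without a model. All 3 shARNT libraries were below all 3 control libraries for 7 of 7 genes, as for 23% of all genes tested. The shBMAL1 libraries were wholly below control for 5 of 7, against 22.9% of all genes. In the direct comparison 4 of 7 genes lay wholly lower and 1, UBA7, wholly higher, against 21.7% and 22.2% of all genes, while UBE2L6, called higher by DESeq2, overlapped. A graded order with no overlap, shControl above shARNT above shBMAL1, was seen for ISG15, HERC5, USP18 and TRIM25, which makes 4 of 7 genes against 4.97% of 15162. The same 4 were called lower in all 3 comparisons, against 3.57% of these genes.

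Expressed per length, as RPKM (reads scaled to the library total and to the length of 1 reference transcript), UBE2L6 and ISG15 were the most abundant of the 7 in control, at 48.2 ± 1.28 and 43.0 ± 5.37 (SD, n = 3), and their ranges overlapped. UBA7 followed at 17.1 ± 0.86, TRIM25 at 13.9 ± 0.17 and USP18 at 9.88 ± 0.31, each wholly above the next. HERC6 and HERC5 were lowest, at 7.28 ± 0.55 and 6.81 ± 0.45, and overlapped each other. The order of levels was kept in shARNT, with the same pairs overlapping. In shBMAL1 the order changed: UBE2L6 stood at 44.9 ± 5.85, UBA7 at 18.0 ± 0.66 and ISG15 at 16.1 ± 0.45, so the modifier lay below both enzymes that handle it, and no neighbours in the order overlapped. HERC6 (5.29 ± 0.47), USP18 (4.10 ± 0.20) and HERC5 (3.44 ± 0.02) closed the list. The order depends on the length used. With the merged exons of all transcripts, an alternative chosen after seeing the data, ISG15 (31.6) was above UBE2L6 (28.5) in control with overlap, and USP18 (4.48) came last, while ISG15 was still below UBE2L6 and UBA7 in shBMAL1.

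The balance within the system was measured as the log2 ratio of each gene to ISG15 inside the same library, with a pseudocount of 1 on normalised counts. Under shARNT, 5 of 6 overlapped their control values and 1, UBA7, did not, with 1.05 ± 0.21 in control and 1.46 ± 0.03 in shARNT (SD, n = 3). Of all genes tested other than ISG15, 74.8% had a ratio to ISG15 wholly above control in shARNT. Leaving out shControl replicate 3, the library with the highest ISG15, raised the number that did not overlap to 3, and leaving out shARNT replicate 3 raised it to 2. Under shBMAL1, 5 of 6 ratios lay wholly above control, as did 89.3% of all genes tested, since the shared denominator ISG15 fell, so that count is no result about these genes. UBE2L6 to ISG15 went from 1.11 ± 0.19 to 2.40 ± 0.22, UBA7 to ISG15 reached 2.53 ± 0.04, and HERC6 to ISG15 went from 0.01 ± 0.26 to 0.95 ± 0.13. TRIM25 to ISG15 went from 1.55 ± 0.19 to 2.14 ± 0.03 and HERC5 to ISG15 from −0.19 ± 0.19 to 0.23 ± 0.05. USP18 was the exception, with −0.57 ± 0.22 in control and −0.43 ± 0.11 in shBMAL1, and these libraries overlapped (exact two-sided permutation p 0.5). Against shARNT, 6 of 6 ratios were wholly higher in shBMAL1, as were 83.3% of all genes tested. An exact permutation test of 3 against 3 libraries cannot go below 0.1, and every separated ratio had that value.

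**Figure D3:**
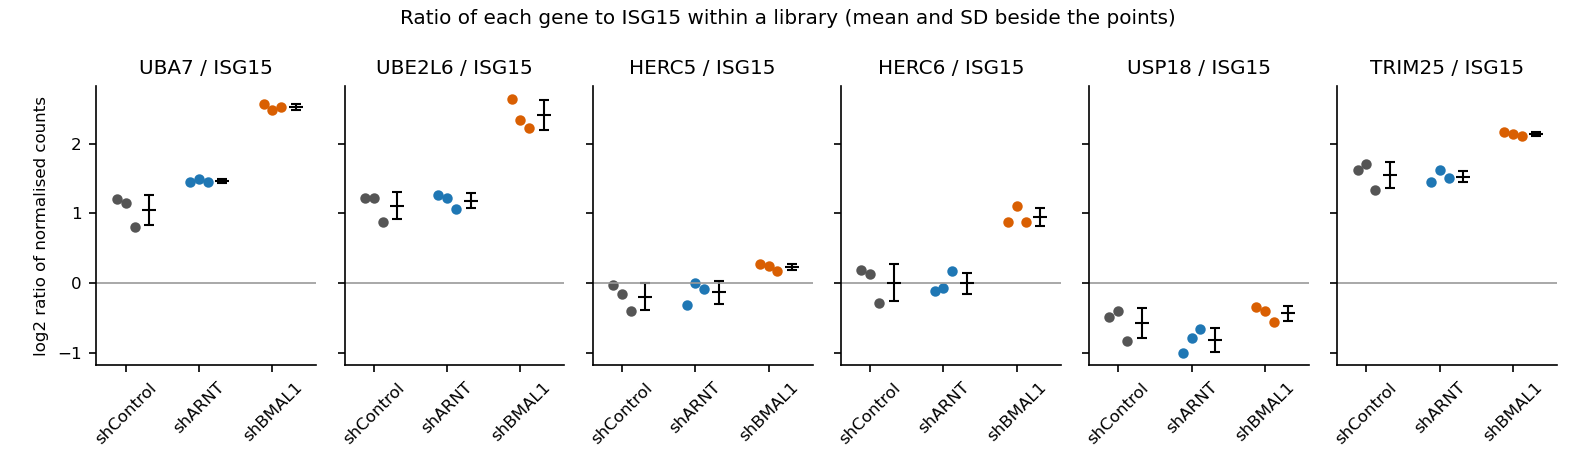
Log2 ratio of normalised counts of 6 genes to ISG15 within each library (vertical axis), 3 libraries per group, with mean and SD beside the points. In shBMAL1 the ratios of UBA7 and UBE2L6 lie between 2.23 and 2.64, above every library of the other groups, whereas those of USP18 overlap the control libraries.

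The wider interferon response moved in the same direction in both knockdowns. Of 52 interferon-induced genes outside the system, 48 were called lower and 1, TRIM5, higher under shARNT, with a median log2 fold change of −0.64, where 19% and 16.5% of all genes were called. Under shBMAL1 46 were lower and 2, LY6E and TRIM5, higher, with a median of −0.78, where 19.4% and 17.4% of all genes were called. The most lowered were OAS2 (−3.87), EPSTI1 (−2.69), IFI27 (−2.63) and MX2 (−2.53) under shARNT, and OAS2 (−4.11), MX2 (−3.42), OAS1 (−3.00) and EPSTI1 (−2.68) under shBMAL1. Beside the medians of the list, ISG15 had −0.57 under shARNT and −1.45 under shBMAL1. In the direct comparison 14 of the 52 were lower, 6 higher and 32 not called, with a median of −0.09. Those counts are nearer to the 18% and 17.3% of all genes called, and the number fell from 20 to 13 without shARNT replicate 2. ISG15 at −0.87 in that comparison stood below the median of the list, while OASL (−1.48) and MX2 (−0.89) of the list were lower still.

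**Figure D4:**
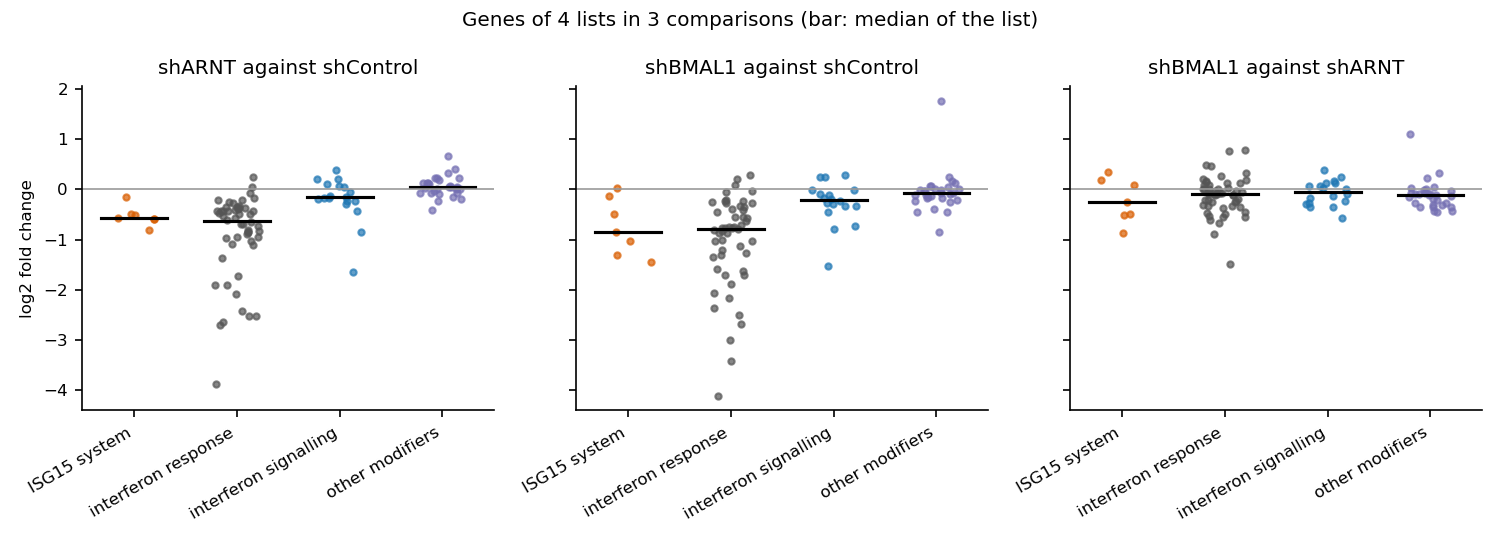
Log2 fold changes (vertical axis) of tested genes in 4 lists, the 7 genes of the ISG15 system, 52 interferon-induced genes, 18 interferon signalling genes and 29 genes of other modifier systems, in 3 comparisons, 1 point per gene with the list's median as a bar. The medians of the first 2 lists lie between −0.85 and −0.57 in both knockdowns, those of the other 2 between −0.22 and 0.05.

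Among 18 genes of interferon signalling, 10 were lower and 3 higher under shARNT, with a median of −0.15, and 7 lower and 3 higher under shBMAL1, with a median of −0.22. The 3 higher in each knockdown are near the 16.5% and 17.4% of all genes called higher, whereas 19% and 19.4% were called lower. IRF9 had 1244, 1387 and 1246 counts in control, 699, 790 and 655 in shARNT, and 822, 695 and 726 in shBMAL1. IRF9 therefore fell to overlapping levels in both, by 0.85 under shARNT (adjusted p 4.65e-19) and by 0.79 under shBMAL1 (adjusted p 8.34e-15). STAT2 fell by 0.19 (adjusted p 0.00234) and by 0.20 (adjusted p 0.00732). IRF7, the regulator of type I interferon genes, had −1.65 and −1.53 (adjusted p 5.25e-16 and 3.58e-14), and the values of the receptor chains and their kinases lay between −0.34 and 0.25 in both knockdowns. The 11 interferon genes examined were barely detected: 6 were at 0 in all 9 libraries, and their summed level was 3.00 to 8.05 normalised counts in control, 3.98 to 8.84 in shARNT and 4.03 to 13.7 in shBMAL1. IFNE made up most of the highest sum, with up to 13.7 counts, while IFNL1 had 2.01, 3.00 and 4.04 in control and 0 in all 6 knockdown libraries, too few reads to be tested.

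Of 8 other proteins known to act on or bind ISG15, 7 were tested. Under shARNT 2 were called lower and 1 higher, where 19% and 16.5% of all genes were called. Under shBMAL1 3 were called lower and 0 higher, where 19.4% and 17.4% of all genes were called. The ligase ARIH1 was lower under shARNT (−0.25, DESeq2 adjusted p 0.00134) and had 0.01 under shBMAL1 (adjusted p 0.938). USP13 was lower under both (−0.32 and −0.24), and USP5 (−0.38) and USP14 (−0.31) were lower under shBMAL1. USP2, at 33 normalised counts in control, was called higher under shARNT (0.91, DESeq2 adjusted p 0.0586), although its shARNT and control libraries overlapped. USP16 and the integrin chain ITGB2 were called in neither, and ITGAL, the partner chain of ITGB2, was not tested because of its low counts. Of 7 close relatives by sequence, 2 were lower and 1 higher under shARNT, near the 19% and 16.5% of all genes, with a median of −0.04. Under shBMAL1, 5 were lower and 0 higher, with a median of −0.33, the same number of calls as in the ISG15 system, where 19.4% of all genes were called lower and 17.4% higher. USP41 (−1.11), HERC2 (−0.45), UBA1, the ubiquitin-activating relative of UBA7 (−0.38, adjusted p 9.77e-08), HERC1 (−0.33) and HERC4 (−0.21) were those lower. UBE2L3, the ubiquitin-conjugating relative of UBE2L6 (−0.07), and HERC3, which lies beside HERC5 (−0.21), were not called. Under shARNT USP41 (−0.83) and HERC1 (−0.19) were lower and HERC4 was higher (0.18).

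Of 29 genes of other ubiquitin-like modifier systems, 3 were lower and 8 higher under shARNT, 8 lower and 2 higher under shBMAL1, and 11 lower and 2 higher in the direct comparison, with medians of 0.05, −0.07 and −0.12. Over all genes, 19%, 19.4% and 18% were called lower and 16.5%, 17.4% and 17.3% higher in these comparisons. UBD, which encodes the cytokine-induced modifier FAT10, stood out from the list after its values were seen. It had 40.2, 43.98 and 34.4 normalised counts in control, 65.3, 52.0 and 69.6 in shARNT, and 146, 134 and 124 in shBMAL1. UBD was thus higher in each knockdown, by 0.66 under shARNT (SE 0.31, DESeq2 adjusted p 0.0930) and by 1.77 under shBMAL1 (SE 0.25, adjusted p 3.90e-11), the opposite direction to ISG15. UBA6, the enzyme that activates FAT10, was lower in both (−0.41 and −0.85).

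Over the 9 libraries, the 7 genes fell into those whose group levels followed ISG15 and those whose group levels did not. Pearson correlations of log2(normalised count + 1) with ISG15 were 0.97 for HERC5, 0.94 for USP18, 0.92 for TRIM25 and 0.64 for HERC6, and 0.16 for UBE2L6 and −0.20 for UBA7. UBA7 and UBE2L6 correlated with each other at 0.83. These 9 points form 3 groups, so the values mostly describe the group levels. In deviations from the group means, where the groups are removed, the 21 pairs ranged from −0.51 for ISG15 with USP18 to 0.75 for UBE2L6 with TRIM25. UBA7 gave 0.69 with UBE2L6 and 0.63 with TRIM25. The other values with ISG15 were −0.18 for HERC5, −0.29 for HERC6, 0.20 for TRIM25, 0.24 for UBA7 and 0.26 for UBE2L6, so the split was not seen there. So few libraries give no order among these pairs. Among the 12911 genes that averaged 50 normalised counts or more, the 5 most like ISG15 over the 9 libraries included ARHGAP22 (r = 0.997), ELK3 (0.993), PLAUR (0.992) and SH3KBP1 (0.991). HERC5 was most like NT5E (0.997) and SLCO4A1 (0.995), TRIM25 most like TNFRSF9 (0.996) and DNMBP (0.996), and USP18 most like DOCK2 (0.993) and ATP8B2 (0.990). For HERC6 they were PTPN18 (0.977) and ZFP69B (0.974), for UBE2L6 MAP4 (0.978) and ANKEF1 (0.975), and for UBA7 BCL9 (0.960) and ATG16L2 (0.952). None of these neighbours belongs to the list of interferon-induced genes. Only 50 genes of that list were among the 12911 compared, so their absence from so few neighbours is no result about the system.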

How the data were processed

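The authors deposited estimated counts per gene, total reads on a linear scale, for 9 libraries. The study's methods give SeqMan NGen for the alignment of paired-end reads to GRCh37 and ArrayStar for the counts, whereas the submitters' processing notes name STAR, DESeq2 and hg38. The annotation and the strand setting of the counting are not given in the sources used here. A value of 0.009 stood for 0 in 46.3% of cells and was set to 0, 53 rows that repeated a gene name were added to that gene, and fractional values (6.14% of the others, and 2 of the 63 values of the 7 genes) were rounded. In 28 rows the symbol had become a date, and these were not named. Library totals differed by little, so depth limits mainly genes with few reads, and replicates of a group differed by more than sampling noise (chi-square per degree of freedom of 7.61 to 17.6).

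Each comparison was fitted in DESeq2 1.42.0 (R 4.3.3) on its 6 libraries across all genes, with median-of-ratios size factors, independent filtering at 0.1 and the two-sided Wald test, its p-values adjusted by Benjamini-Hochberg over all genes tested. Genes with an adjusted p below 0.1, as in the study, were called. Normalised counts used size factors of all 9 libraries. Lists are described by counts and medians of the fitted log2 fold changes, with no set test. Groups were taken from the sample titles. Transcript lengths, spans and shared 100-base windows were read from GENCODE models on GRCh37 (lifted), with 1-based coordinates, and promoters from RefSeq on GRCh38.p14. Alternatives were edgeR 4.0.16 (quasi-likelihood, TMM), TMM size factors, a filter of 10 counts in 3 libraries, a threshold of 0.05, a change of at least 1.5-fold, 1 fit of all 9 libraries, a replicate block, a pseudocount of 5 and leaving out each library. The scripts were tested on simulated data.

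The 7 genes and every gene list were chosen with earlier results of these data known. Genes named were the members, STAT2 and IRF9, the targeted genes, the 4 most lowered and 4 most raised called interferon-induced genes (mean of at least 50 normalised counts) per knockdown, called ISG15 partners, relatives and signalling genes behind small counts, and the 5 or 2 genes most like each member. IRF7, UBD and UBA6 were named after their values were seen. Some genes that the rule names are not reported here.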

Additional observations from a re-analysis of the deposited data

Results flagged for a closer look

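Differences between the effects of the 2 hairpins, tested directly with DESeq2 as shBMAL1 minus shARNT on the log2 scale, passed the threshold for 6 genes of the system. ISG15 differed by −0.87, HERC5 by −0.51, USP18 by −0.49 and TRIM25 by −0.25, each lower in shBMAL1. UBE2L6 differed by 0.35 and UBA7 by 0.19, both higher in shBMAL1 and both dependent on single libraries. With 3 libraries a group, single libraries were not tested as outliers.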

How the results depend on the processing

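Over the alternatives, the log2 fold changes of the 7 genes and of STAT2 and IRF9 kept their direction wherever called, and 352 kept their side of the threshold, 25 lost it and 1 gained it. Requiring a change of at least 1.5-fold left 2 of 7 genes called under shARNT (USP18 and TRIM25), 1 in the direct comparison (ISG15), and 27 and 5 interferon-induced genes in the same comparisons. Leaving out single libraries gave 13 to 17 interferon-induced genes in the direct comparison, and 1 to 3 ratios to ISG15 that did not overlap under shARNT. In the fit with a replicate block, 6, 5 and 6 of the 7 genes were called under shARNT, under shBMAL1 and directly, UBA7 under shARNT having an adjusted p of 0.137 in DESeq2. Same-numbered libraries deviated together with correlations of −0.154 to 0.105, so the numbers were not taken as pairs. Low-count genes such as the interferons could not be resolved at this depth.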
